A study of Mus musculus with 15 samples.

Results

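The genes described here encode the enzymes and readers that write, remove and interpret chemical marks on histones, and the ATP-driven machines that move nucleosomes. They were chosen by symbol on oligonucleotide arrays of A.E7, a CD4 T helper clone from the mouse: lysine demethylases (Kdm), lysine methyltransferases (Kmt and Setd), lysine acetyltransferases (Kat), zinc-dependent deacetylases (Hdac), sirtuins (Sirt), the Smarc genes of the SWI/SNF and ISWI families, the chromodomain remodellers (Chd) and the bromodomain readers (Brd). Of 15964 genes on the arrays, 79 matched, on 174 probe sets, and 53 of the 79 reached 4 times the median intensity of their chip type in at least 1 treatment. The same was true of 6337 genes in all. Where a gene had several probe sets, the brightest on average was used, so each value given is the intensity of that probe set on 1 array.

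The study measured 5 treatments of the clone. Mock cells were the control, anti-TCR cells were stimulated through the T cell receptor alone (the array titles call them anergic), and 3 further groups received anti-TCR with CSA (cyclosporin A, which blocks the phosphatase calcineurin), with PKCi (a protein kinase C inhibitor that the labels do not name) or with Combo (rapamycin, PD98059 and SB203580, which block mTOR, MEK and p38). RNA of 2, 4 and 6 h was pooled by treatment, and each pool went onto 3 chips that carry different probe sets (types A, B, C), 15 arrays in all. All groups are this 1 clone, the inhibitor doses and the number of cultures are not given in the labels, and pooling the times hides their order. Because every treatment has a single array of each type, no difference could be checked against replicates or tested, and precision is limited by how few arrays there are. In a bulk sample, fewer cells of a kind and less RNA per cell cannot be told apart. On the arrays 8 of 9 T helper markers reached the level limit in at least 1 treatment, among them Cd3e, Cd4 and Thy1, while 0 of 5 B cell, 0 of 2 CD8 T cell, 0 of 4 erythroid and neutrophil and 1 of 7 macrophage and dendritic cell markers did (Cd14, between 203 and 293). Of the T helper markers, Cd3d and Cd3g fell 2.06-fold and 2.01-fold with anti-TCR against mock, Cd2 fell with CSA against anti-TCR, and Cd5 lay below its floor on every array; the part of these changes in the results was not tested.

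Histone marks are added and removed continuously, and in T cells the balance of these enzymes at cytokine and transcription factor genes is part of how a cell keeps or changes its programme after receptor engagement. Acetylation and methylation of lysines are read by bromodomain and chromodomain proteins, and SWI/SNF, ISWI and CHD machines use ATP to slide or evict nucleosomes. Polycomb enzymes lay down a repressive methyl mark that Kdm6a and Kdm6b remove, and the Kmt2 enzymes lay down methyl marks of active promoters and enhancers.

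Here "rose" and "fell" stand for a difference of 2-fold or more in which the higher value was at least 4 times the chip median. The chip medians were 51.1 (A), 69.5 (B) and 55 (C); values below them were raised to that floor before log2 was taken, and a fold is given as "at least" where the lower value was not above that floor. Across all genes, the log2 ratio of anti-TCR to mock had a technical SD of 0.76, taken from 768 pairs in which 1 gene was read by probe sets of separate chips; it was 0.49 for CSA, 0.71 for PKCi and 0.56 for Combo against anti-TCR. A 2-fold difference is 1 on this scale, so calls near 2-fold lie within 2 such SDs for anti-TCR, PKCi and Combo. It measures how probe sets and chips differ, and leaves out the spread between cultures.

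In anti-TCR against mock, which asks what the receptor signal changes, 8 of 50 measured genes of the family rose and 7 fell. That is 30.0% in all, against 25.3% of the 5803 genes measured on the arrays; 16.0% of the family rose against 11.4% of all genes, and 14.0% fell against 13.9%. The share of the family that changed is therefore near the background. Its median log2 ratio was -0.12, and that of all genes -0.08. The risen genes were Kdm6b, Kdm2b, Smarca5, Brd2, Smarca2, Kdm7a, Setd5 and Chd1, and the fallen ones Kmt2c, Setdb1, Kat2b, Kdm6a, Brd8, Kmt2e and Kmt2a. Of these 15, 4 lay more than 2 technical SDs from 0, namely Kdm6b, Kdm2b, Smarca5 and Kmt2c (4 of 50, or 8%, against 12.3% of all genes). Kdm6b, Brd2 and Smarca2 passed the level limit here only through the anti-TCR array, so they could count only as higher. Setdb1, Kat2b, Kdm6a and Brd8 passed it only through the mock array and could count only as lower. The same rule was applied to all genes.

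**Figure D1:**
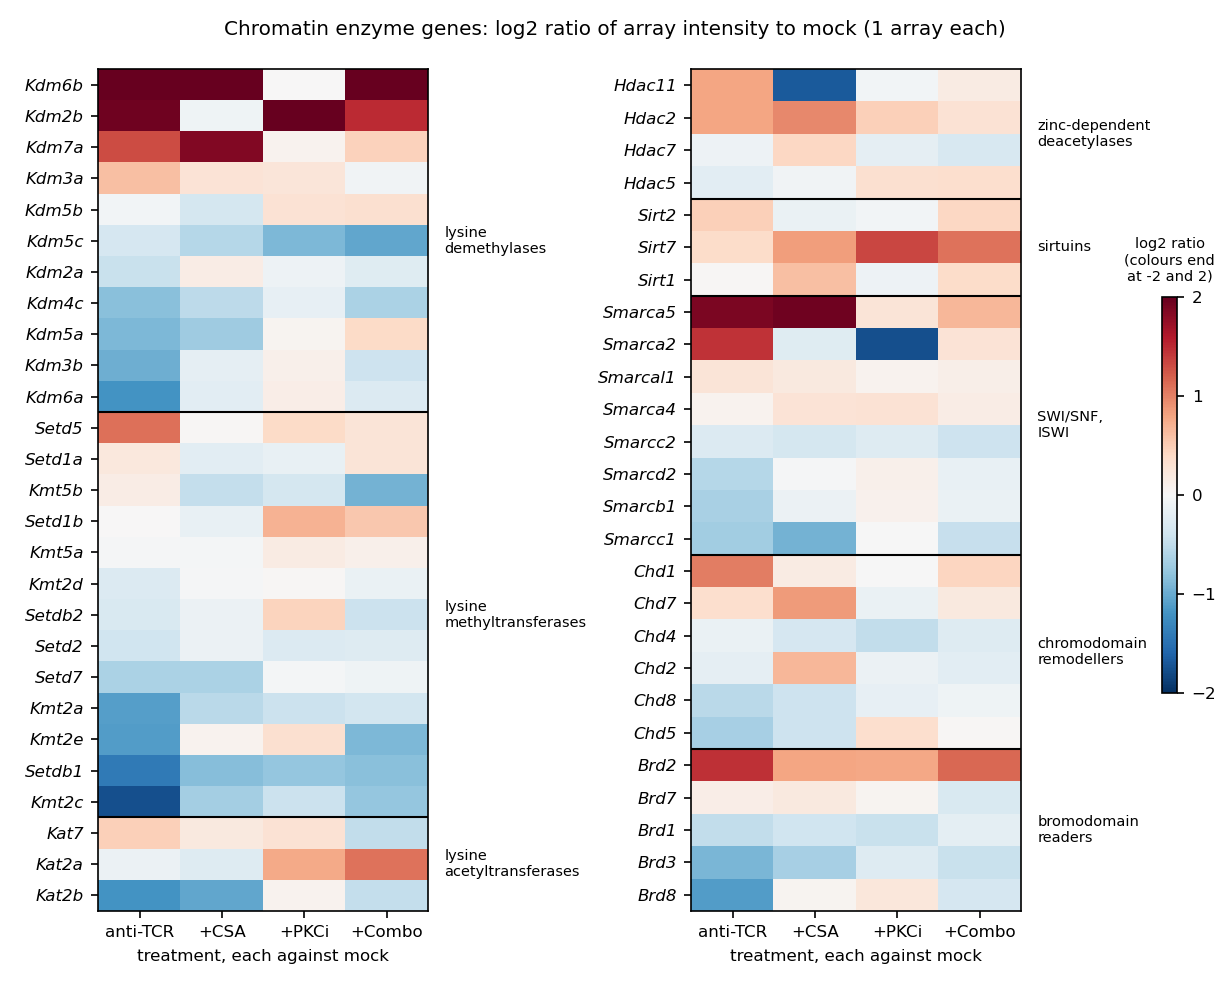
Colour shows the log2 ratio of array intensity to mock for the 53 genes (rows, grouped by role and ordered by anti-TCR) in 4 treatments (columns), 1 array each, with colours ending at -2 and 2. Kdm6b is saturated with anti-TCR (5.88), CSA (5.28) and Combo (4.39) and blank with PKCi, whereas Kdm2b is blank with CSA (-0.08).

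Promoters were looked up for the 15 genes in RefSeq (GRCm38.p6, 250 bases before to 50 after a listed start); 6 of the 8 that rose and 5 of the 7 that fell matched. Sequences are shown for Kdm2b and Smarca5, the largest rises that matched, and for Kmt2c, the largest fall that matched. They run 5′ to 3′ on the gene's strand, with motif matches in capitals. The Kdm2b window (chr5:122988458-122988757, minus strand) is 1 of 4 listed starts, the Smarca5 window is chr8:80739410-80739709 (minus strand) and the Kmt2c window chr5:25498734-25499033 (minus strand). Where several starts were listed, the one with most motif matches is shown, or the one farthest upstream in a tie. The Kdm2b window was thus not chosen independently of its match.
Kdm2b: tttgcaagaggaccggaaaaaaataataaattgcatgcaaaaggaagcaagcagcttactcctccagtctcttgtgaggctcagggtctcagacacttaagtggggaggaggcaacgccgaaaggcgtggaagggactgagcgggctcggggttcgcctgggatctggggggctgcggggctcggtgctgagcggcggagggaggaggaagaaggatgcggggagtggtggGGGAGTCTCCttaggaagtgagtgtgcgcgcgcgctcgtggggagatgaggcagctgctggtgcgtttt
Smarca5: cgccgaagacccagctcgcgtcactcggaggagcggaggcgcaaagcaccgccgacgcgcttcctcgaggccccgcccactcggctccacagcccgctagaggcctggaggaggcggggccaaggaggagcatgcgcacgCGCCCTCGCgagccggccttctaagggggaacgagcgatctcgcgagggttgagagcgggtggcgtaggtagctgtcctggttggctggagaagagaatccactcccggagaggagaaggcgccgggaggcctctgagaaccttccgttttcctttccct
Kmt2c: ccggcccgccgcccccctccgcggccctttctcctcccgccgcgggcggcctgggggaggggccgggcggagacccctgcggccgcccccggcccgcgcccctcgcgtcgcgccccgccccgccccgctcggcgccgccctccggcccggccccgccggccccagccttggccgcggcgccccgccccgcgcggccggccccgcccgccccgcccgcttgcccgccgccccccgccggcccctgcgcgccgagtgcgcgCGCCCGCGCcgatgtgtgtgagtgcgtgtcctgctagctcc
The capitals mark an NF-kB site in Kdm2b and an Egr site in Smarca5 and in Kmt2c. Counted from the listed start, their first bases are at -19, -110 and 10. The windows are rich in G and C: 59.7%, 67.7% and 88.0%, against a median of 64.3% over the 60 promoters of 43 of the 53 genes and 52.7% over all 32851 promoters.

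The motifs searched on both strands were the cAMP response element TGACGTCA, the AP-1 site TGANTCA, the E-box CACGTG, the Egr site GCGNGGGCG, the NF-kB site and the serum response element. The 11 promoters of the risen genes are listed starts of 6 genes, and the 6 of the fallen genes of 5, so windows of 1 gene are not separate cases. The Egr letters were found in 4 of 11 promoters of the risen genes (Kdm2b, Kdm7a and Smarca5) and 1 of 6 of the fallen genes (Kmt2c), and in 5.55% of all promoters. The Egr letters are G and C apart from the N, and the family's promoters are richer in these bases than all promoters (medians of 64.3% and 52.7%). The shares were not adjusted for this. The NF-kB site was found in 2 of 11 (Kdm2b and Smarca2) and 0 of 6, against 8.46%, and the AP-1 site in 1 of 11 (Smarca2) and 1 of 6 (Kat2b), against 7.81%. The E-box was found in 0 of 11 and 1 of 6 (Kdm6a), against 7.15%. For the cAMP response element (1.79% of all promoters) and the serum response element (1.63%) these letters were in none of the 17 windows. A match of letters is a description and does not show binding.

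The lysine demethylases held the largest rise. Kdm6b (JMJD3) removes the Polycomb methyl mark; it read 7.3 with mock, 4085 with anti-TCR, 2701 with CSA, 4.4 with PKCi and 1458 with Combo. It was thus dark in mock and PKCi cells and bright in the other 3 treatments, a rise of at least 58.8-fold with anti-TCR. Its paralog Kdm6a (UTX), moved the other way: it read 216 with mock, 94.7 with anti-TCR, 187 with CSA, 236 with PKCi and 179 with Combo, and so fell 2.29-fold and was lowest with anti-TCR alone.

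Kdm2b, which removes methyl groups from histone H3 and brings a Polycomb complex to CpG islands, read 389 with mock, 1501 with anti-TCR, 367 with CSA, 1602 with PKCi and 1096 with Combo. Its 3.86-fold rise (promoter shown above) was therefore absent from the CSA array and present on the PKCi and Combo arrays. Its paralog Kdm2a did not pass in any of the 4 comparisons (830 to 1247 over the 5 treatments). Kdm7a, which removes repressive methyl marks, read 325 with mock, 800 with anti-TCR, 1172 with CSA, 342 with PKCi and 446 with Combo, so it rose 2.46-fold and was highest with CSA.

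The other demethylases moved less. Kdm3b and Kdm4c, which act on repressive methyl marks, stood at log2 ratios of -0.98 and -0.84, just short of a fall, and Kdm3a at 0.60. In the Kdm5 group, which removes the methyl mark of active promoters, Kdm5b (-0.06, on an r-suffixed probe set) and Kdm5c (-0.33) did not pass, and Kdm5a lay below the level limit on both arrays. A letter suffix marks a probe set that shares sequence with other transcripts or breaks a design rule; 8 of the 53 genes were read on one.

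Among the methyltransferases, 4 of 13 fell, against 13.9% of all genes, and 1 rose, against 11.4%. The genes that fell were Kmt2c, Kmt2a, Kmt2e and Setdb1, and for Kmt2a and Kmt2e the call holds on the brightest probe set but not on the mean of the bright ones. Kmt2c (MLL3), a methyltransferase of enhancers, read 2904 with mock, 859 with anti-TCR, 1815 with CSA, 2167 with PKCi and 1699 with Combo. It was lowest with anti-TCR alone, 3.38-fold below mock, and each inhibitor array lay between the 2. Kmt2a (MLL1) read 2682, 1251, 1854, 1995 and 2076 in the same order, a 2.14-fold fall that quantile normalization also took below 2-fold (log2 ratio -0.94), and Kmt2e (MLL5, a SET domain protein) read 3132, 1442, 3277, 3895 and 1671, a 2.17-fold fall. The enhancer methyltransferase Kmt2d, at 380 to 466 over the 5 treatments, did not pass.

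Setdb1, which lays down a silencing methyl mark on heterochromatin and retroelements, read 368 with mock, 138 with anti-TCR, 205 with CSA, 216 with PKCi and 207 with Combo. It fell 2.66-fold, and the inhibitor arrays stayed at log2 ratios of -0.84, -0.77 and -0.83 to mock. The SET domain gene Setd5 read 1573 with mock, 3378 with anti-TCR, 1606 with CSA, 2047 with PKCi and 1880 with Combo. It rose 2.15-fold and was highest with anti-TCR alone. The promoter methyltransferases Setd1a (0.22) and Setd1b (0.01), the gene body methyltransferase Setd2 (-0.40), Setd7 (-0.64), Setdb2 (-0.31) and the histone H4 methyltransferase Kmt5a (-0.02) did not pass.

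Kat2b (PCAF), an acetyltransferase, read 273 with mock, 120 with anti-TCR, 134 with CSA, 288 with PKCi and 196 with Combo. It fell 2.29-fold, and the CSA value lay beside the anti-TCR value. Of the other acetyltransferases Kat7 stood at 0.47, and Kat2a lay below the level limit on both arrays. No deacetylase or sirtuin passed the size rule in this comparison (0 of 3 and 0 of 3 measured): Hdac2 stood at 0.78 and Hdac11 at 0.79, Hdac7 at -0.11, Sirt2 at 0.48, Sirt7 at 0.37 and Sirt1 at 0.02. Hdac5 lay below the level limit on both arrays (203 and 176).

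The remodellers that rose were ATPases. Smarca5 (SNF2H), the motor of ISWI complexes, read 358 with mock, 1324 with anti-TCR, 1376 with CSA, 429 with PKCi and 566 with Combo, and so rose 3.69-fold, as high with CSA as without. Smarca2 (BRM) read 187 with mock, 508 with anti-TCR, 158 with CSA, 48.5 with PKCi and 226 with Combo; it rose 2.72-fold and was bright only with anti-TCR and, just past the limit, with Combo. Its alternative in SWI/SNF complexes, Smarca4 (BRG1), read between 674 and 821 on all 5 arrays (log2 ratio 0.07).

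The SWI/SNF core and accessory subunits Smarcb1 (-0.65), Smarcc1 (-0.70), Smarcc2 (-0.28) and Smarcd2 (-0.56, f-suffixed) all lay below 0 without passing. Chd1, a remodeller of transcribed genes, read 346 with mock, 701 with anti-TCR, 389 with CSA, 344 with PKCi and 466 with Combo, a 2.03-fold rise. Chd2 (-0.17), Chd4 (-0.13, f-suffixed), Chd5 (-0.67), Chd7 (0.34) and Chd8 (-0.54) did not pass.

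The bromodomain readers gave 1 of each kind. Brd2, a BET protein that binds acetylated histones, read 126 with mock, 349 with anti-TCR, 219 with CSA, 217 with PKCi and 281 with Combo on an r-suffixed probe set, a 2.76-fold rise. Brd8, a subunit of an acetyltransferase complex, read 345, 158, 359, 404 and 274 in the same order. It fell 2.18-fold, and its CSA and PKCi values lay above mock. Brd3 (-0.92, f-suffixed), Brd1 (-0.49, f-suffixed) and Brd7 (0.13, s-suffixed) did not pass.

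**Figure D2:**
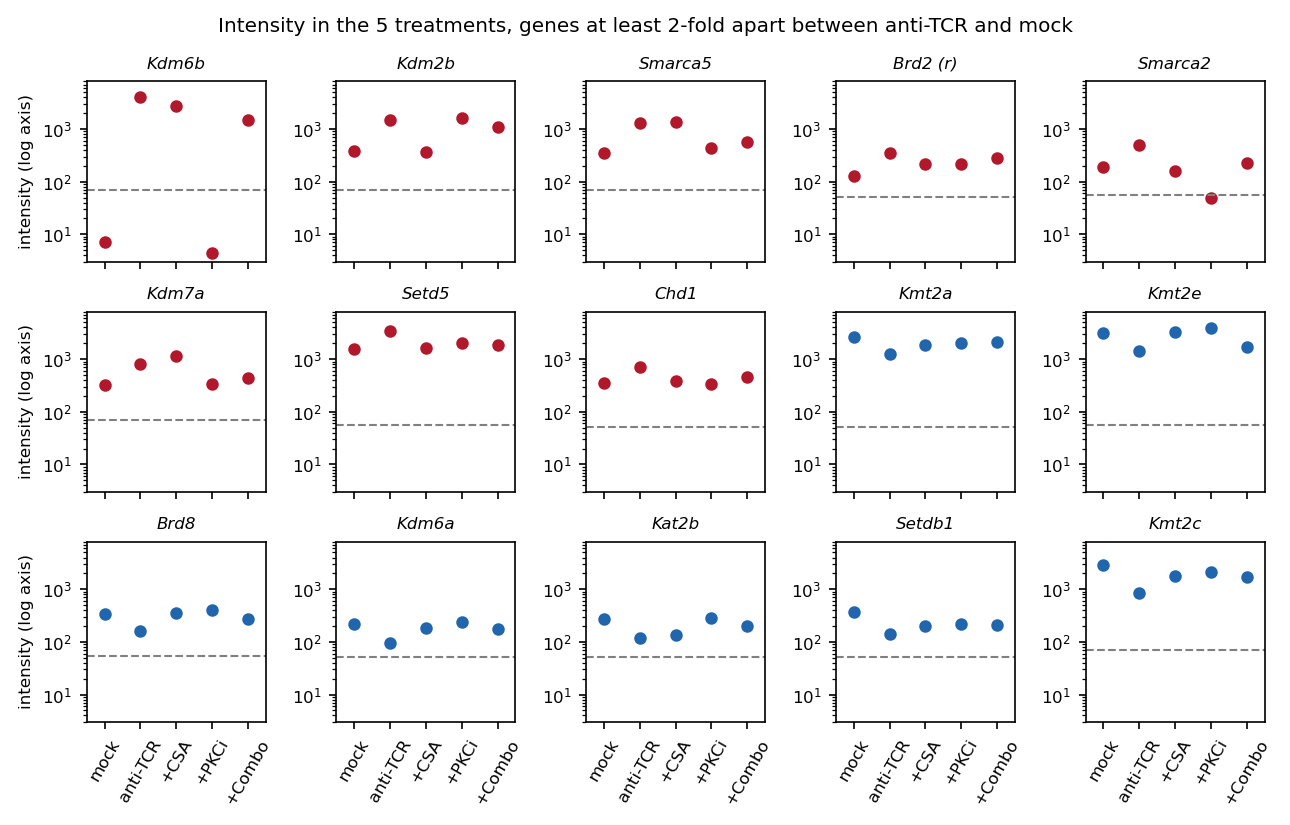
Each panel gives the intensity (log axis) of 1 gene on its 5 arrays, with the chip median as a dashed line, red for the 8 genes that rose with anti-TCR and blue for the 7 that fell; (r) marks a suffixed probe set. Kdm6b reads 7.3 with mock and 4.4 with PKCi, below the dashed line, and Kdm2b and Smarca5 show opposite gaps between CSA and PKCi.

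Further probe sets give the only repeat reading of these pools. Of the 53 genes, 13 had 20 further probe sets that reached the level limit, and in anti-TCR against mock 17 of the 20 pointed the same way as the chosen one (median absolute difference 0.47 in log2 ratio). Smarca5 was repeated closely, with 1.87 and 1.59 on chip A beside 1.89 on chip B. Of the other genes called in this comparison, 4 had such probe sets: Setd5 gave 0.32 beside 1.10, Chd1 0.08 and -0.17 beside 1.02, Kmt2a -0.14 beside -1.10, and Kmt2e -0.77, -0.55 and -0.09 beside -1.12. With the mean of a gene's bright probe sets the log2 ratio was 0.71 for Setd5, 0.31 for Chd1, -0.62 for Kmt2a and -0.63 for Kmt2e, so none of these 4 calls held with that mean. The remaining 10 of the 15 had no further bright probe set.

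**Figure D3:**
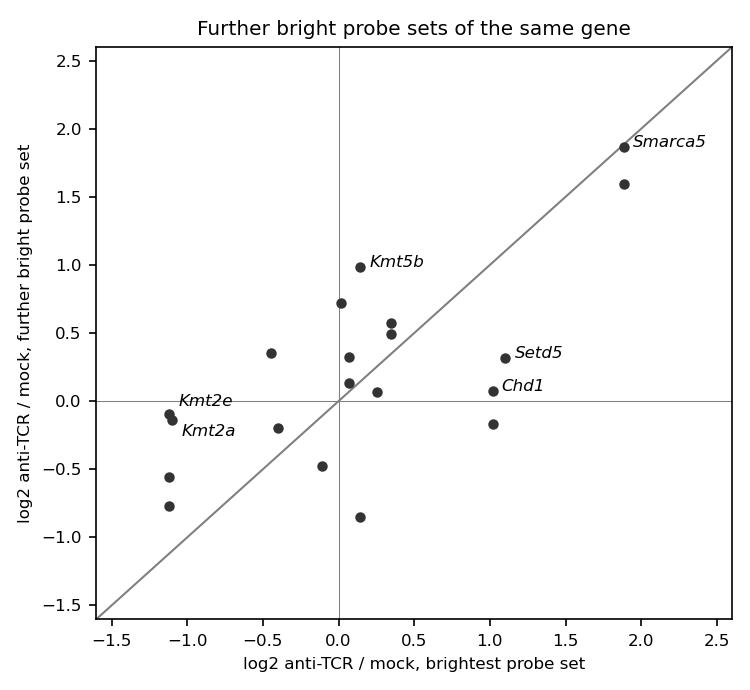
Each point is 1 further bright probe set, with its log2 ratio of anti-TCR to mock (vertical) against that of the brightest probe set of the same gene (horizontal); the diagonal is equality. The 2 points of Smarca5 lie at 1.87 and 1.59 near the diagonal, while those of Setd5 (0.32), Chd1 (0.08 and -0.17) and Kmt2a (-0.14) lie nearer 0.

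The 3 inhibitor comparisons share the anti-TCR array with each other and with the comparison above, so a gene high or low on that array by error moves in all of them; the values are set side by side and not counted as repeats. With CSA against anti-TCR alone, which asks what depends on calcineurin, 3 of 46 measured genes rose and 4 fell. That is 15.2% against 10.2% of all genes (4.84% of all genes rose and 5.34% fell), and the medians were 0.11 and 0.03. In this comparison 2 technical SDs are 0.98, so every 2-fold call lies beyond them and this limit adds nothing to the size rule. Beyond it lay 7 of 46 genes, or 15.2%, against 10.7% of all genes. Hdac11, a deacetylase, read 252 with mock, 436 with anti-TCR, 78.8 with CSA, 244 with PKCi and 282 with Combo. It fell 5.53-fold with CSA (log2 -2.47, or -1.65 with a floor of 2 times the chip median), and had no other bright probe set. In this comparison it passed the level limit only through the anti-TCR array, so it could count only as lower. The CSA value also lay below the mock value, but both were under the level limit of 278, so that pair was not counted.

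Kdm2b fell 4.09-fold, Smarca2 3.21-fold and Setd5 2.10-fold with CSA, each to within a log2 ratio of 0.24 of its mock value. The mock and CSA values of Smarca2 (187 and 158) lay below its level limit of 220. Smarca2 too passed the limit here only through the anti-TCR array. Kmt2c rose 2.11-fold, Brd8 2.27-fold and Kmt2e 2.27-fold, the last 2 back to the mock level (log2 ratios to mock of 0.06 and 0.07). Brd8 passed the level limit here only through the CSA array, so it could count only as higher. Kdm6b stood at 2701, which did not pass (-0.60), and Smarca5 at 0.06. The mean of its bright probe sets lowered the call of Setd5 to -0.59 and that of Kmt2e to 0.65.

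With PKCi against anti-TCR alone, which asks what depends on protein kinase C, 7 of 51 measured genes rose and 5 fell. These are 23.5% of the family against 24.0% of all genes (14.3% rose and 9.75% fell), with medians of 0.13 and 0.03, so the share is that of the background. Kdm6b fell at least 58.8-fold, to 4.4, below its floor. Smarca2 fell at least 9.23-fold (log2 -3.21, or -2.21 with a floor of 2 times the chip median) to 48.5, which is also under its floor and under its mock value. That mock value (187) was itself below the level limit, so the pair of PKCi and mock was not counted. Smarca5 fell 3.08-fold, Kdm7a 2.34-fold and Chd1 2.04-fold. Kdm6b and Smarca2 passed the level limit only through the anti-TCR array, so in this comparison they could count only as lower.

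The genes that rose with PKCi were Kmt2e (2.70-fold), Brd8 (2.55-fold), Kmt2c (2.52-fold), Kdm6a (2.49-fold), Kat2b (2.41-fold), Kdm3b (2.13-fold) and Chd5 (2.01-fold). Brd8, Kdm6a, Kat2b and Chd5 passed the level limit only through the PKCi array, so in this comparison they could count only as higher. Of all calls with PKCi, those of Kdm6b, Smarca2, Smarca5 and Kmt2e lay more than 2 technical SDs from 0. They are 4 of 51, or 7.84%, against 12.7% of all genes, and the other calls lay within that limit. Kdm3b read 582 with mock, 295 with anti-TCR, 511 with CSA, 627 with PKCi and 436 with Combo, lowest with anti-TCR. Chd5, a remodeller best known from neurons, read 231, 145, 174, 292 and 236 in the same order. On their further bright probe sets, Smarca5 gave -0.47 and -1.22 with PKCi, Chd1 -0.68 and -0.16, and Kmt2e 0.95, 0.62 and 0.52. The mean of the bright probe sets was 0.88 for Kmt2e and -0.62 for Chd1, which ends both calls.

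With Combo against anti-TCR alone, which asks what depends on mTOR, MEK and p38 together, 2 of 50 measured genes rose and 4 fell. That is 12% against 13.4% of all genes (7.95% rose and 5.46% fell), with medians of 0.10 and 0.02. Kdm6b fell 2.80-fold to 1458, Smarca5 2.34-fold and Smarca2 2.25-fold. Kmt5b, a histone H4 methyltransferase, read 1132 with mock, 1249 with anti-TCR, 818 with CSA, 892 with PKCi and 585 with Combo; it fell 2.13-fold on this probe set but stood at 0.09 and -0.36 on its others. Kdm5a read 206, 110, 126, 215 and 269 in the same order and rose 2.43-fold, and Kat2a, an acetyltransferase of the SAGA complex, read 134, 124, 112, 226 and 284 and rose 2.29-fold. Kat2a and Kdm5a passed the level limit only through the Combo array, so in this comparison they could count only as higher. On the chosen probe sets, Kat2a, Kdm5a, Kdm6b, Smarca2 and Smarca5 lay more than 2 technical SDs from 0, and Kmt5b did not. They are 5 of 50, or 10.0%, against 10.3% of all genes. The mean of the bright probe sets gave 0.88 for Kat2a, -0.45 for Kmt5b and -0.86 for Smarca5, which ends those calls.

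**Figure D4:**
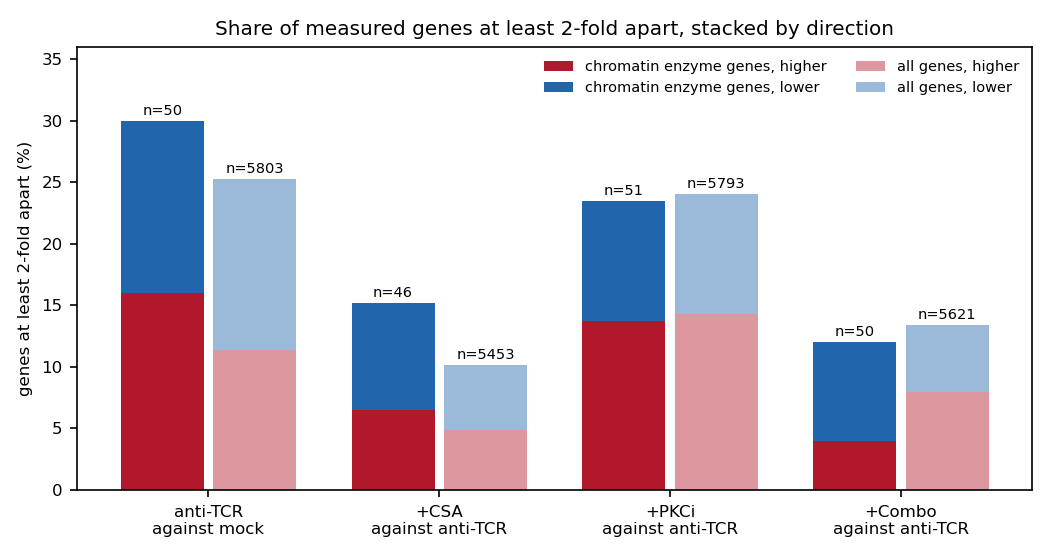
Bars give the percentage of measured genes at least 2-fold higher (red) or lower (blue) in each comparison, stacked, for the chromatin enzyme genes (dark) and for all genes (pale), with the number measured above each bar. The family's total lies at 30.0% against 25.3% for anti-TCR, 15.2% against 10.2% for CSA, 23.5% against 24.0% for PKCi and 12% against 13.4% for Combo.

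The inhibitor arrays were also set against mock, the array that the anti-TCR comparison uses too. With CSA 3 of 47 measured genes were at least 2-fold higher (6.38%, against 8.65% of all genes) and 1 lower (2.13%, against 7.81%). These were Kdm6b (at least 38.9-fold), Smarca5 (3.84-fold) and Kdm7a (3.60-fold), and Kat2b, 2.05-fold lower. With PKCi 2 of 47 were higher (4.26%, against 6.90%) and 0 lower (against 3.55%), namely Kdm2b (4.12-fold) and Sirt7, a nucleolar deacylase (2.51-fold). With Combo 5 of 53 were higher (9.43%, against 8.39%) and 1 lower (1.89%, against 6.01%): Kdm6b (at least 21.0-fold), Kdm2b (2.82-fold), Brd2 (2.22-fold), Sirt7 (2.13-fold) and Kat2a (2.12-fold), and Kdm5c, 2.06-fold lower. The mock values of Kdm6b, Brd2 and Kat2a lay below the level limit, so these genes could count only as higher. Kat2b with CSA passed it only through the mock array and could count only as lower.

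The CSA and PKCi arrays share no array with each other and were compared directly. Of 48 measured genes 3 were at least 2-fold higher with CSA and 2 with PKCi, 10.4% against 13.7% of all genes (6.49% higher with CSA and 7.18% with PKCi). Kdm6b was at least 38.9-fold, Kdm7a 3.43-fold and Smarca5 3.21-fold higher with CSA. Kdm2b was 4.37-fold and Kat2b 2.16-fold higher with PKCi. Kdm6b passed the level limit only through the CSA array and Kat2b only through the PKCi array, so each could count in that direction only. For 3 further genes both arrays lay below the level limit, so they were not counted: Smarca2 was higher with CSA (158 and 48.5), and Hdac11 (78.8 and 244) and Kat2a (112 and 226) were higher with PKCi.

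**Figure D5:**
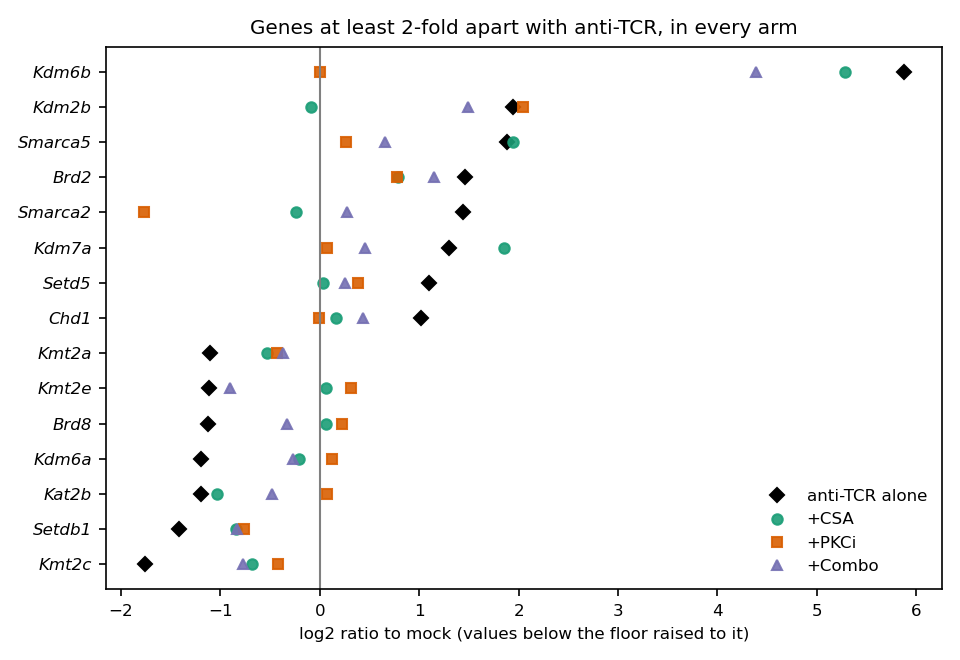
For the 15 genes that rose or fell with anti-TCR, points give the log2 ratio to mock of anti-TCR alone (black diamond), CSA (green circle), PKCi (orange square) and Combo (purple triangle), 1 array each, with values below the floor raised to it. With CSA Smarca5 (1.94) and Kdm7a (1.85) lie at or beyond the anti-TCR point, and Kdm2b does so with PKCi (2.04).

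Other chromatin genes were read from lists of partners and related enzymes that the symbol rule leaves out. Their counts are to be read against all genes: 11.4% rose and 13.9% fell with anti-TCR (median -0.08), 4.84% and 5.34% with CSA, 14.3% and 9.75% with PKCi, and 7.95% and 5.46% with Combo. The lists are short, so 1 gene moves a share by several points. They were chosen with earlier results of these data known, so their shares are descriptions only. Some listed genes passed the level limit on a single array of a comparison and could count in a single direction. With anti-TCR these include Dnmt3a, Gadd45b and Baz1a (only as higher) and Ezh1 and Pcgf1 (only as lower). DNA methylation genes rose in 4 of 7 cases with anti-TCR, against 11.4% of all genes, and fell in 0, against 13.9% (median 1.41). Dnmt3a, which methylates DNA anew, read 172 with mock, 963 with anti-TCR, 424 with CSA, 150 with PKCi and 380 with Combo, a 5.60-fold rise. Tet2, which oxidises methylated cytosine, read 381, 1545, 646, 323 and 979 in the same order, a 4.06-fold rise. Gadd45b, which has been linked to DNA demethylation, rose 10.3-fold on an f-suffixed probe set. With PKCi Gadd45b, Dnmt3a and Tet2 fell 6.90-fold, 6.44-fold and 4.79-fold, and with CSA 3.61-fold, 2.27-fold and 2.39-fold; with Combo Dnmt3a fell 2.53-fold and Gadd45b read 2536.

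Of 14 measured genes among the other methyltransferases and the second Polycomb complex, 4 rose and 4 fell with anti-TCR, against 11.4% and 13.9% of all genes (median -0.51). Jarid2, a partner of that complex, rose 7.44-fold on an f-suffixed probe set, Prmt6 4.22-fold (s-suffixed) and Smyd5 2.62-fold. Ezh1, one of its catalytic subunits, read 361 with mock, 108 with anti-TCR, 115 with CSA, 309 with PKCi and 283 with Combo, a 3.34-fold fall; Smyd3 fell at least 4.45-fold and Prdm2 2.75-fold. With PKCi 4 of 12 rose (14.3% of all genes), led by Ehmt2 (5.25-fold), and 4 fell (9.75%), led by Jarid2 (5.57-fold). With Combo 5 of 13 rose (7.95%) and 2 fell (5.46%), and with CSA 0 of 13 rose (4.84%) and 1 fell (5.34%). In the first Polycomb complex 3 of 7 fell with anti-TCR, against 13.9% of all genes, and 0 rose, against 11.4% (median -0.68): Pcgf1, a partner of Kdm2b, 4.14-fold, Phc3 2.93-fold and Cbx6 2.88-fold. With PKCi 3 of 7 rose (14.3% of all genes), with CSA 1 of 6 rose (Phc3), and with Combo Phc3 rose and Bmi1 fell.

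Of 19 measured SWI/SNF accessory and INO80 family subunits, 1 rose and 2 fell with anti-TCR (median -0.31), at or below the 11.4% and 13.9% of all genes. Baz1a, which pairs with Smarca5 in ISWI complexes, read 150 with mock, 1882 with anti-TCR, 1266 with CSA, 491 with PKCi and 761 with Combo, a 12.6-fold rise. On these arrays Baz1a and Smarca5 were both high with anti-TCR and CSA and lower with PKCi and Combo. Baz1b (-0.59), Baz2a (-0.91) and Rsf1 (-0.31) of the same list lay below 0 with anti-TCR without passing. A link between Smarca5 and any gene of this list was not tested. Bptf, the large subunit of another ISWI complex, fell 2.50-fold and Pbrm1, a SWI/SNF subunit, 2.36-fold. With PKCi Ss18 rose and Baz1a fell 3.84-fold, with Combo Baz1a fell, and with CSA 0 of 19 passed.

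Deacetylase corepressor subunits rose in 3 of 14 cases with anti-TCR and fell in 1 (median 0.27), against 11.4% and 13.9% of all genes. Tbl1x rose at least 7.98-fold, Mta2 2.25-fold and the histone chaperone Rbbp7 2.13-fold, and the methyl-DNA reader Mbd2 fell 2.37-fold. With CSA 1 of 13 fell, with PKCi 2 of 14 and with Combo 1 of 14, and 0 rose in each. In the list of jumonji and other modifiers 2 of 18 rose with anti-TCR (Riox1 6.59-fold and Jmjd6 2.27-fold) and 1 fell (Phip 3.56-fold), neither share above that of all genes; Riox1 fell 4.08-fold with PKCi and 2.95-fold with Combo. Of 12 other acetyltransferases and coactivators 1 rose (Naa50, 2.64-fold) and 1 fell (Ncoa1, 3.88-fold), likewise. Of the subunits of Kmt2 and Setd1 complexes, 5 were measured (Wdr5, Rbbp5, Dpy30, Cxxc1 and Hcfc1), and 0 passed in either direction in the 4 comparisons.

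Over the 5 treatments the brightest value of the 53 genes lay a median of 1.92-fold above the dimmest, against 1.89-fold for all genes that reached the level limit, and 12 genes (22.6%, against 23.4%) stayed within 1.5-fold. The steadiest were Kmt5a (1.15-fold), Smarcal1 (1.19-fold, s-suffixed) and Smarca4 (1.22-fold). In all, 21 of the 53 (39.6%) passed in at least 1 of the 4 comparisons, against 36.3% of all genes: 6 of 11 demethylases, 6 of 13 methyltransferases, 2 of 3 acetyltransferases, 1 of 4 deacetylases, 0 of 3 sirtuins, 2 of 8 Smarc genes, 2 of 6 Chd genes and 2 of 5 bromodomain readers. Of the 53, 38 reached the level limit in all 5 treatments and 2 in only 1.

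The level limit left out 26 genes of the family. Just inside it were Kat2a (4.08 times the chip median) and Kdm6a (4.62), and just outside Smarcad1 (3.75) and Brd9 (3.65). The genes left out were Kdm1a, Kdm1b, Kdm4b, Kdm5d and Kdm8 among the demethylases, Kmt5c, Setd3, Setd4 and Setd6 among the methyltransferases, Kat5, Kat6b and Kat14 among the acetyltransferases, Hdac1, Hdac3, Hdac4, Hdac6, Hdac9, Sirt3 and Sirt5 among the deacylases, and Smarca1, Smarcd1, Smarcd3, Smarcad1, Smarce1, Chd1l and Brd9 among the remodellers and readers. Several are broadly expressed enzymes, so a dim probe set does not show that the gene is off.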

How the data were processed

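The authors' deposited tables hold linear array intensity values for 12422, 12411 and 11868 probe sets on chip types A, B and C (36701 in all), 5 arrays each; none is below 0, and the scaling method is not stated in any source used. They were used as deposited. Gene symbols came from the platform annotation: 29131 probe sets carry 1 symbol, 724 several and 6846 none, and the last 2 kinds were left out. All 79 family symbols matched a current gene table, and 0 changed. The share of probe sets at or above 4 times the chip median ran from 17.4% to 23.0% by array. Groups came from the array titles. The floor, level limit and 2-fold rule were applied to all genes alike, on the log2 scale, with Python 3.11.15, numpy 2.4.6 and pandas 2.3.3; the steps were tested on simulated data. The alternatives tried were quantile and median scaling, a floor of 0.5 or 2 times the chip median, a limit of 8 times, the mean of the bright probe sets, leaving out suffixed probe sets, and 1.5-fold or 3-fold as the size rule. The members, lists and naming rule (any family gene past the level limit, and up to 3 genes in each direction of another list) were chosen with earlier results of these data known.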

Additional observations from a re-analysis of the deposited data

Results flagged for a closer look

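A probe set on chip type B that the annotation gives to both Kdm6b and 1700064E03Rik was left out of the comparisons because it carries 2 symbols. It stood out because its signal lay far above that of the mock array: it read 22.7 with mock, 3260.7 with anti-TCR, 1148 with CSA, 26.7 with PKCi and 1283 with Combo, at least 46.9-fold higher with anti-TCR than with mock. Its order over the 5 treatments can be set beside that of the Kdm6b probe set (7.3, 4085, 2701, 4.4 and 1458). With CSA it lay 2.84-fold below anti-TCR, while the Kdm6b probe set stood at a log2 ratio of -0.60. Which of the 2 transcripts it reads was not tested. The other 2 probe sets with several symbols, both for Brd3os, did not reach the level limit.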

How the results depend on the processing

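No paired analysis was possible because no treatment has a second array of any type. Of 40 calls of a gene in a comparison, 29 stayed at least 2-fold the same way under every alternative that gave a value, and 0 reversed. For a gene with 1 bright probe set, the mean of the bright probe sets is the same value, so that alternative could not end its calls. Brd2, Brd8, Chd5, Hdac11, Kat2b, Kdm5a, Kdm6a and Setdb1 did not reach 8 times the chip median, so that limit gave no value for them. Their calls are among the 29 although they were not tried at that limit. Brd2 also gave no value when suffixed probe sets were left out. Every call that ended was on a gene with further bright probe sets (Chd1, Kat2a, Kmt2a, Kmt2e, Kmt5b, Setd5, and Smarca5 with Combo). Of the calls on such genes, only those of Smarca5 with anti-TCR and with PKCi held. Quantile or median scaling, a floor of 0.5 or 2 times the chip median and leaving out suffixed probe sets kept each count within 1.5 times. The size rule moved the counts most. At 3-fold the genes higher were 3, 0, 0 and 0 (anti-TCR, CSA, PKCi and Combo) against 8, 3, 7 and 2, and those lower were 1 with anti-TCR, 3 with PKCi and 0 with Combo against 7, 5 and 4. At 1.5-fold those higher were 6 with CSA, 18 with PKCi and 7 with Combo, and those lower were 14, 9, 8 and 11. With a limit of 8 times the chip median, 3 genes were lower with anti-TCR, and 3 were higher with PKCi and 0 with Combo. With the mean of the bright probe sets 1 was higher and 2 lower with Combo. A rule added after the data were seen, that the mean over the 5 treatments reach the limit, gave 4 higher with PKCi and 0 with Combo. Some sizes depend on the floor: Kdm6b with anti-TCR ran from log2 4.88 to 6.88, Smarca2 with PKCi from -3.39 to -2.21, and Hdac11 with CSA was -1.65 with the higher floor. Quantile normalization put Kmt2a with anti-TCR at -0.94. Genes near the chip median are limited by signal over background.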

Other observations

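Sirt7 passed in none of the 4 main comparisons but was higher than mock on all 3 inhibitor arrays. It read 563 with mock, 728 with anti-TCR, 1002 with CSA, 1415 with PKCi and 1199 with Combo, highest on the PKCi array. Kdm5c, which removes the methyl mark of active promoters, read 900, 714, 608, 481 and 437 in the same order, lowest on the Combo array. Setd1b, a promoter methyltransferase, read 1288, 1295, 1160, 2095 and 1875, highest on the PKCi and Combo arrays, without reaching 2-fold. These comparisons have 1 array a group, so they are values without a test.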
